A study of Sus scrofa with 3 samples.

Results

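ssc-miR-1, ssc-miR-133a-3p and ssc-miR-499-5p are the classical microRNAs (miRNAs) of skeletal and heart muscle, and all 3 were counted in pig liver. They were chosen by name (without the species prefix from here on), with every precursor listed for them, and are 3 of the 405 mature miRNAs in the counts. They take 4 rows of the deposited counts, because miR-133a-3p is listed on a pair of precursors. The data are small RNA reads from livers of male pigs aged 90 days after birth, with 1 library each for the Enshi black pig (a domestic breed of China), for the Chinese wild boar and for the Large White pig (a commercial breed of European origin). The labels speak of 3 male pigs and leave unsaid whether a library is 1 pig or a pool. No replicate check is therefore possible for any difference given here. All intervals are 95% intervals that cover counting error only.

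miR-1 is made from transcripts that also carry a miR-133a hairpin, and in mouse muscle cells miR-1 promotes differentiation, in part through the histone deacetylase HDAC4, while miR-133a represses the serum response factor SRF. miR-499 lies in an intron of the myosin gene MYH7B and belongs with miR-208 to the miRNAs carried by myosin genes. Liver parenchyma is not a known site of strong expression for any of them. In the RefSeq gene table of the assembly Sscrofa11.1, the nearest miRNA gene to MIR1 was MIR133A-1, MIR133A-2 lay within the span of MIB1, and MIR499 lay within MYH7B. The scarcer relatives MIR206 and MIR133B were each other's nearest miRNA gene, and MIR208B lay within MYH7, the slow myosin heavy chain gene.

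The libraries were those of liver by their defining miRNA. miR-122, the hepatocyte miRNA, ranked first in each and took 34.2% of the reads in the Enshi black, 39.5% in the wild boar and 41.4% in the Large White library. The totals were 7730934, 7824836 and 7343033 reads in the same order of libraries. Values are given as counts per 1000000 reads of the total (CPM), and also after scaling by the trimmed mean of M-values (TMM), a method that takes the bulk of miRNAs to be level between libraries. TMM moved every log2 ratio by −0.64 for Enshi black over Large White, by −0.48 for wild boar over Large White and by −0.16 for Enshi black over wild boar, so both scales are shown. A miRNA was called where 2 libraries lay 2-fold or more apart and the interval of their ratio left out 1.

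All 3 muscle miRNAs were scarce but well above the detection limit in every library, and each passed the minimum of 10 mean CPM at which 208 miRNAs were compared. miR-499-5p had the most reads of the 3. It was counted 1413 times in the Enshi black, 1105 times in the wild boar and 1455 times in the Large White library. Those counts are 0.0183%, 0.0141% and 0.0198% of the reads in the same libraries, and they placed miR-499-5p at rank 116 of 311, 121 of 307 and 104 of 304 detected miRNAs. Its neighbours by read count included miR-146b in the Enshi black library and miR-145-3p in the other two.

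miR-1 was counted 526 times in the Enshi black, 185 times in the wild boar and 584 times in the Large White library, and its rank was 151, 183 and 129. The wild boar library stood low, and the Enshi black and Large White libraries lay near each other. miR-133a-3p was the scarcest of the 3, with 183 reads in the Enshi black, 175 in the wild boar and 162 in the Large White library, at ranks 187, 185 and 180. Its read counts were almost level. By reads, the order miR-499-5p, miR-1, miR-133a-3p held in all libraries, but in the wild boar library miR-1 and miR-133a-3p had overlapping intervals on the TMM scale, 18.9 to 25.3 CPM for miR-1 and 17.8 to 24.1 CPM for miR-133a-3p. Read counts of different miRNAs also carry their unequal adaptor ligation, so this is an order of reads and not of molecules.

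**Figure D1:**
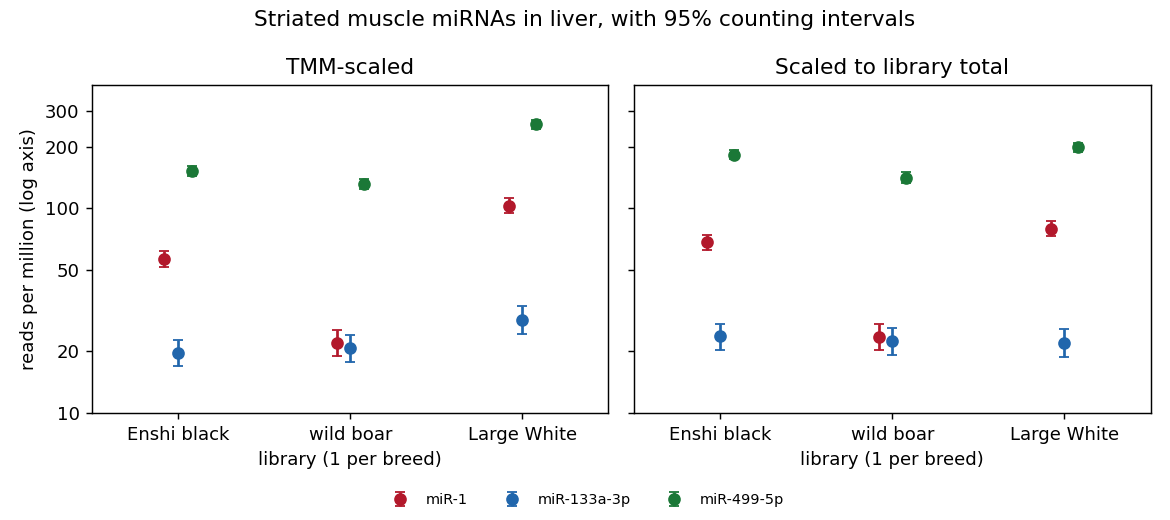
Level of miR-1, miR-133a-3p and miR-499-5p in each library, in CPM on a log axis, after TMM scaling (left) and of the library total (right). Points are single libraries and bars are 95% counting intervals. miR-1 stands low in the wild boar library on both scales, at 21.9 CPM after TMM and 23.6 CPM of the total, where it meets miR-133a-3p.

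miR-1 was lower in wild boar liver than in the liver of either domestic breed on every scale tried. After TMM scaling it stood at 21.9 CPM in wild boar liver, against 103 CPM in Large White liver, and was 4.69-fold lower in the wild boar (interval 3.97 to 5.57). On library totals the values were 23.6 CPM in wild boar liver and 79.5 CPM in Large White liver, 3.36-fold lower in the wild boar (2.85 to 3.99). Among the 208 miRNAs compared, miR-1 was at place 3 from the lowest in this pair.

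The other two differed less in that pair. After TMM, miR-499-5p stood at 131 CPM in wild boar liver and 257 CPM in Large White liver, a log2 ratio of −0.97 (−1.08 to −0.86) that lay just under the 2-fold threshold. miR-133a-3p stood at 20.8 CPM in wild boar liver and 28.6 CPM in Large White liver, with a log2 ratio of −0.46 (−0.78 to −0.14). On library totals the ratio of miR-499-5p was −0.49 (−0.60 to −0.37), and that of miR-133a-3p was 0.02 (−0.30 to 0.34), where its direction turned and its interval held 0. Of the 3 miRNAs, miR-1 was thus the 1 called in this pair, where 25.0% of all miRNAs compared were called in either direction and 13.5% were called lower (9.13% lower on library totals). The median log2 ratio was −0.97 over the 3 and −0.02 over all 208, and on library totals −0.49 over the 3 and 0.46 over all.

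Enshi black liver held more miR-1 than wild boar liver. miR-1 was at 56.6 CPM in the Enshi black and 21.9 CPM in the wild boar library after TMM, 2.58-fold higher in the Enshi black (2.18 to 3.07), and 2.88-fold higher on library totals (2.43 to 3.42). miR-499-5p had 152 CPM in the Enshi black and 131 CPM in the wild boar library, a log2 ratio of 0.21 (0.10 to 0.33). miR-133a-3p had 19.7 CPM in the Enshi black and 20.8 CPM in the wild boar library, and its log2 ratio of −0.08 (−0.38 to 0.23) could not be told from 0 by counting error. That ratio was 0.08 (−0.23 to 0.39) on library totals. miR-1 was again the 1 called of the 3, against 12.5% of all 208 called in either direction and 6.25% called higher (7.21% higher on library totals). The median was 0.21 over the 3 and −0.01 over all, and on library totals it was 0.37 over the 3 and 0.15 over all.

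Between the domestic breeds, none of the 3 was past 2-fold. After TMM all 3 had log2 ratios of Enshi black over Large White below 0, with intervals that left out 0, at −0.86 for miR-1 (−1.04 to −0.69), −0.75 for miR-499-5p (−0.86 to −0.65) and −0.54 for miR-133a-3p (−0.85 to −0.22). In this pair 13.0% of all miRNAs were called, and 30.3% on library totals. On library totals the 3 ratios shrank to −0.23 (−0.40 to −0.05) for miR-1, −0.12 (−0.22 to −0.01) for miR-499-5p and 0.10 (−0.21 to 0.42) for miR-133a-3p. The direction of miR-133a-3p thus turned with the scaling, and the other two stayed below 0. Their median of −0.75 after TMM stood beside −0.04 over all 208, and their median of −0.12 on library totals beside 0.60 over all. The 3 thus lay below most other miRNAs of this pair, at places 27, 35 and 43 from the lowest for miR-1, miR-499-5p and miR-133a-3p. Scaling moves all ratios of a pair alike, so these places cannot differ between the scales.

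**Figure D2:**
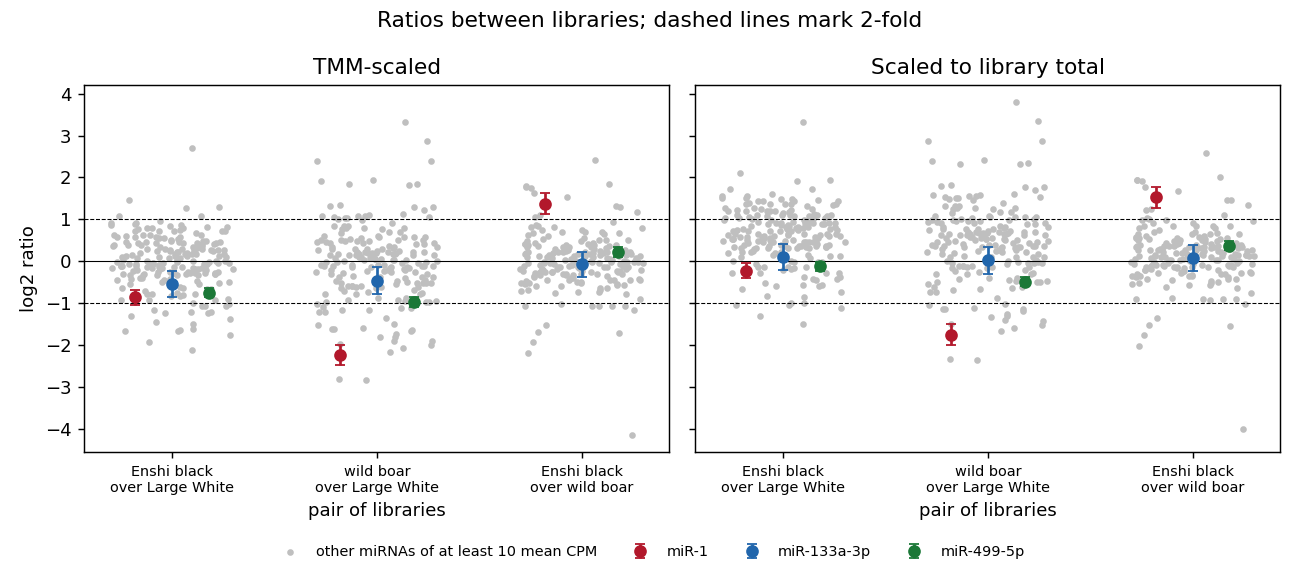
Log2 ratio of each pair of libraries for miR-1, miR-133a-3p and miR-499-5p (coloured, with 95% counting intervals) and for the other miRNAs of at least 10 mean CPM (grey), after TMM scaling (left) and on library totals (right). Dashed lines mark 2-fold. miR-1 lies past them in both pairs that hold the wild boar library, at −2.23 over Large White and, for Enshi black over wild boar, at 1.37 after TMM.

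Over the 3 libraries, miR-1 spanned a 4.61-fold range after TMM, computed with 0.5 CPM added, and 96.2% of the 208 miRNAs had a narrower one. The median miRNA spanned 1.59-fold. miR-499-5p spanned 1.95-fold and miR-133a-3p 1.44-fold. On library totals the range of miR-1 was 3.31-fold, wider than in 90.9% of the miRNAs, that of miR-499-5p 1.40-fold and that of miR-133a-3p 1.07-fold, against a median of 1.88-fold. Just 1 of the 208 miRNAs had a narrower range on totals than miR-133a-3p.

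Ratios of reads within a library do not depend on scaling, and they separated miR-1 from the other two. The Enshi black library held 2.87 reads of miR-1 per read of miR-133a-3p (2.42 to 3.42), the wild boar library 1.06 (0.86 to 1.31) and the Large White library 3.60 (3.02 to 4.32). The wild boar ratio was 3.41-fold lower than the Large White ratio (2.58 to 4.51), and the Enshi black ratio was 2.72-fold higher than the wild boar ratio (2.06 to 3.58). Enshi black over Large White had a quotient of 0.80 (0.62 to 1.02), whose interval held 1. With the reads of miR-1 and miR-206, and of miR-133a-3p and miR-133b, summed, its log2 value was −0.36 (−0.714 to −0.0063), just short of 0. The files list miR-1 on 1 precursor and miR-133a-3p on a pair of precursors with equal counts in each library. Which of them gave the miR-133a-3p reads cannot be told.

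Against miR-499-5p, miR-1 had 0.372 reads per read in the Enshi black (0.336 to 0.412), 0.167 in the wild boar (0.143 to 0.196) and 0.401 in the Large White library (0.364 to 0.442). The wild boar value was 2.40-fold lower than the Large White value (1.99 to 2.89). miR-133a-3p had 0.130 reads per miR-499-5p read in the Enshi black, 0.158 in the wild boar and 0.111 in the Large White library, and the wild boar value was 1.42-fold that of the Large White (1.13 to 1.80). Of the reads of all 3, miR-1 made up 24.8% in the Enshi black (23.0 to 26.7), 12.6% in the wild boar (11.0 to 14.4) and 26.5% in the Large White library (24.7 to 28.4).

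Set against miR-122, the muscle miRNAs gave another picture. miR-122 itself took its smallest share of reads in the Enshi black library, 34.2% against 41.4% in the Large White library. miR-1 had 199 reads per 1000000 reads of miR-122 in the Enshi black (182 to 217), 59.9 in the wild boar (51.5 to 69.1) and 192 in the Large White library (177 to 208). The domestic breeds were level by this measure, with a quotient of 1.04 (0.92 to 1.17), and the wild boar was 3.21-fold below the Large White library (2.72 to 3.81). miR-499-5p had 534 in the Enshi black, 358 in the wild boar and 479 in the Large White library. Its Enshi black value was 1.49-fold its wild boar value (1.38 to 1.62). miR-133a-3p had 69.2 in the Enshi black, 56.6 in the wild boar and 53.3 in the Large White library. On this measure both stood slightly higher in Enshi black than in Large White liver, at 1.12-fold (1.04 to 1.20) for miR-499-5p and 1.30-fold (1.05 to 1.61) for miR-133a-3p, against the direction after TMM.

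The partner arm of miR-499 differed more between libraries than miR-499-5p did. miR-499-3p, the minor arm of that hairpin, had 13 reads in the Enshi black, 7 in the wild boar and 45 in the Large White library. It made up 0.912% of the reads of both arms in the Enshi black (0.486 to 1.55), 0.629% in the wild boar (0.253 to 1.29) and 3.0% in the Large White library (2.2 to 3.99). The Large White interval did not overlap the others. Relative to Large White, the odds of the minor arm were 3.36-fold lower in Enshi black (1.77 to 6.82) and 4.88-fold lower in wild boar liver (2.17 to 12.9). Of the 57 hairpins whose arms together had 100 reads or more in every library, 7.02% and 21.1% were at least 2-fold apart in these pairs with an interval that left out 1. The Enshi black and wild boar libraries had a quotient of 1.45 (0.54 to 4.31), and 10.5% of hairpins were called in that pair.

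miR-133a-5p, the minor arm of miR-133a, had 9 reads in the Enshi black, 4 in the wild boar and 10 in the Large White library. Its share was 4.69% in the Enshi black (2.17 to 8.71), 2.23% in the wild boar (0.61 to 5.62) and 5.81% in the Large White library (2.82 to 10.4). These intervals overlap, and no difference was detectable at this depth.

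**Figure D3:**
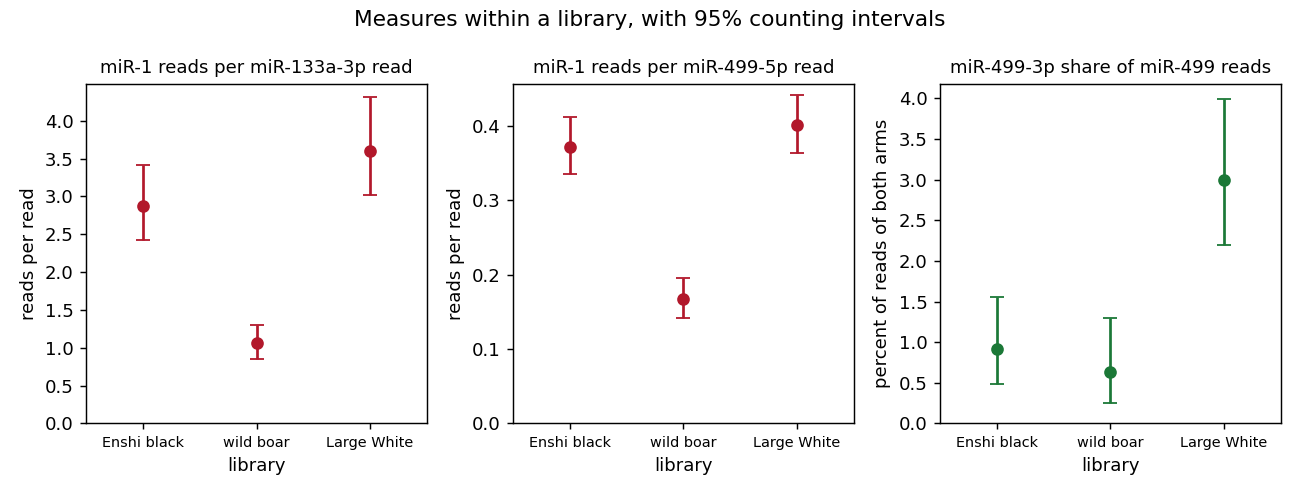
Reads of miR-1 per read of miR-133a-3p (left), reads of miR-1 per read of miR-499-5p (middle) and the share of miR-499-3p in the reads of both miR-499 arms, in percent (right), in each library with 95% counting intervals. The wild boar library is low in both miR-1 ratios, at 1.06 and 0.167, and the Large White library is high in the miR-499-3p share, at 3.0%.

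The wider striated muscle list held 9 names, of which 8 are listed in the counts, and 7 had reads. miR-208b, the myosin-borne relative of miR-499, had 0 reads in all 3 libraries, which allows up to 0.388 CPM in Enshi black, 0.383 CPM in wild boar and 0.409 CPM in Large White liver at 3 counts of the total. miR-206, a skeletal muscle miRNA close in sequence to miR-1, had 8 reads in the Enshi black, 17 in the wild boar and 32 in the Large White library. After TMM its log2 ratio was −2.71 for Enshi black over Large White (−4.04 to −1.56) and −1.48 for wild boar over Large White (−2.43 to −0.59). Its order over the libraries was therefore unlike that of miR-1, with the Enshi black library lowest, although the Enshi black and wild boar values had an interval that held 0 (log2 −1.23, −2.65 to 0.06). miR-133b had 5 reads in the Enshi black, 4 in the wild boar and 7 in the Large White library, too few to order them.

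With no CPM minimum, 2 of the 7 list members with reads, miR-206 and miR-499-3p, were called lower in Enshi black than in Large White liver and none was called higher, where 12.4% of all miRNAs with reads were called lower. In wild boar over Large White, 4 of the 7 were called lower (miR-1, miR-133a-5p, miR-206 and miR-499-3p) against 15.0% of all. miR-133a-5p was called on 4 against 10 reads and was not called on library totals, where the count was 3 of 7 against 9.55% of all. In Enshi black over wild boar, miR-1 was the 1 of 7 called higher and none was called lower, against 6.67% of all called higher. The list's median log2 ratios in these pairs were −0.86, −1.48 and 0.21. Over all miRNAs with reads in both libraries of a pair, the medians were −0.06, −0.06 and −0.04 in the same pairs.

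Part of the reads of miR-1 and of miR-133a-3p were divided with a relative. The deposited values of miR-1 and miR-206 were not all whole, but the sums of both names were, at 534 in the Enshi black, 202 in the wild boar and 616 in the Large White library. miR-133a-3p and miR-133b likewise summed to 188 in the Enshi black, 179 in the wild boar and 169 in the Large White library, within 0.01 of a whole number. The low place of the wild boar library for miR-1 does not rest on that division, since the joint level of miR-1 and miR-206 after TMM was 57.5 CPM in Enshi black, 24.0 CPM in wild boar and 109 CPM in Large White liver.

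None of 3 other muscle-enriched miRNAs was lowest in the wild boar library after TMM. miR-486, which is found in muscle and in red cells, had 132 CPM in Enshi black, 145 CPM in wild boar and 147 CPM in Large White liver after TMM. miR-378, carried by the PPARGC1B gene, had 983 CPM in Enshi black, 1077 CPM in wild boar and 1674 CPM in Large White liver. miR-95 had 118 CPM in Enshi black, 119 CPM in wild boar and 66.8 CPM in Large White liver, lowest in Large White liver. None of these 3 was called in any pair after TMM. On library totals miR-95 was called higher over Large White in both pairs, with log2 ratios of 1.46 for Enshi black and 1.31 for wild boar. Of all miRNAs, 27.4% and 21.6% were called higher in these pairs on that scale, so 1 of 3 is near the background. Also on library totals, miR-378 stood 0.03 higher in log2 ratio in Enshi black than in wild boar liver. This made the wild boar its lowest library on totals, by a margin within counting error.

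Most listed leucocyte miRNAs were also low in wild boar liver. The 5 of 6 listed leucocyte miRNAs that the counts hold summed to 10877 CPM in Enshi black, 3651 CPM in wild boar and 20806 CPM in Large White liver after TMM, and 4 of the 5 were called lower in wild boar over Large White (13.5% of all 208 miRNAs) and 4 called higher in Enshi black over wild boar (6.25% of all). On library totals these counts were 3 (9.13% of all) and 4 (7.21% of all). miR-155-5p was called in neither pair, with log2 ratios of −0.72 and 0.09 after TMM. In Enshi black over Large White, the median log2 ratio of the 5 was −0.56 after TMM, where miR-1 had −0.86. miR-142-3p had −1.07, miR-155-5p −0.62, miR-142-5p −0.56 and miR-150 0.18, and 1 of the 5 was called lower (10.1% of all). On library totals the median of the 5 was 0.08 and none was called. The red cell list summed to 4114 CPM in Enshi black, 3114 CPM in wild boar and 5324 CPM in Large White liver, with 1 of 3 (miR-144) called lower in wild boar over Large White, where 13.5% of all were, and none called in Enshi black over wild boar. miR-144 was also called lower in Enshi black over Large White (log2 −1.21), where 10.1% of all were. On library totals it summed to 4944 CPM in Enshi black, 3356 CPM in wild boar and 4112 CPM in Large White liver, still lowest in the wild boar. The part of blood or leucocyte content in the miR-1 difference was not tested. The smooth muscle list, led by miR-143-3p, summed to 25509 CPM in Enshi black, 19588 CPM in wild boar and 19293 CPM in Large White liver, with none of 4 called in any pair, and 1 called higher in Enshi black over Large White on library totals, where 27.4% of all were. The pair of endothelial miR-126 arms summed to 16284 CPM in Enshi black, 12169 CPM in wild boar and 10080 CPM in Large White liver, and the neural and endocrine list to 679, 642 and 913 CPM in the same order of breeds. Within that list miR-7 was lowest in the wild boar, at 288, 165 and 580 CPM in that order. miR-128 (332, 378 and 271 CPM), miR-9 (59.2, 89.7 and 61.5 CPM) and miR-124a (1, 81 and 0 reads) were highest there. After TMM, 1 of the 3 compared (miR-7) was called lower over Large White in Enshi black (10.1% of all) and in wild boar (13.5% of all). Neither miR-126 arm was called in any pair after TMM. On library totals the endothelial sums were 19568, 13111 and 7786 CPM in that order. Both arms were then called higher in Enshi black over Large White (27.4% of all), and 1 in wild boar over Large White (21.6% of all). The neural and endocrine sums on that scale were 816, 692 and 705 CPM, with Enshi black highest in place of Large White. The hepatocyte list summed to 384175 CPM in Enshi black, 484141 CPM in wild boar and 792788 CPM in Large White liver after TMM. On library totals the sums lay closer, at 461638, 521630 and 612342 CPM in that order. After TMM, 3 of the 6 were called lower in Enshi black over Large White (10.1% of all). In wild boar over Large White, 1 of the 6 was called lower (13.5% of all). On library totals 1 of the 6 was called lower in each of these pairs. Of all miRNAs, 9.13% were called lower in wild boar over Large White on that scale. In Enshi black over Large White, 30.3% of all were called in either direction and 27.4% were called higher. In a bulk liver sample, fewer cells of a type and less RNA per cell cannot be told apart.

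By profile over the 3 libraries, miR-1 was nearest to miR-140-5p, miR-142-5p and miR-29b. Likeness was measured as the Euclidean distance between log2 levels after TMM, with 0.5 CPM added and each miRNA centred on its mean over the libraries, among the miRNAs of at least 10 mean CPM. The distances were 0.17, 0.21 and 0.36. The nearest of all, miR-140-5p, known from cartilage, had 522 CPM in Enshi black, 230 CPM in wild boar and 900 CPM in Large White liver. The leucocyte miR-142-5p had 1777 CPM in Enshi black, 618 CPM in wild boar and 2613 CPM in Large White liver.

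Among the 207 other miRNAs, miR-499-5p was at place 26 in nearness to miR-1, at a distance of 0.97, and miR-133a-3p at place 59, at 1.32, where the median miRNA was at 1.60. miR-499-5p was nearest to miR-374a-3p (0.04), miR-218 (0.10) and miR-136 (0.10). miR-133a-3p was nearest to miR-450b-5p (0.08), miR-193a-3p (0.11) and miR-320 (0.15), and miR-499-5p was at place 50 in nearness to it, at 0.36. In the reverse direction, miR-1 was at place 189 of 207 in nearness to miR-133a-3p, where the median miRNA was at 0.64. In nearness to miR-499-5p, miR-1 was at place 129, where the median miRNA was at 0.85. miR-1 was thus farther than the median miRNA from both. With 3 libraries, each distance rests on 3 values per miRNA and describes these libraries.

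**Figure D4:**
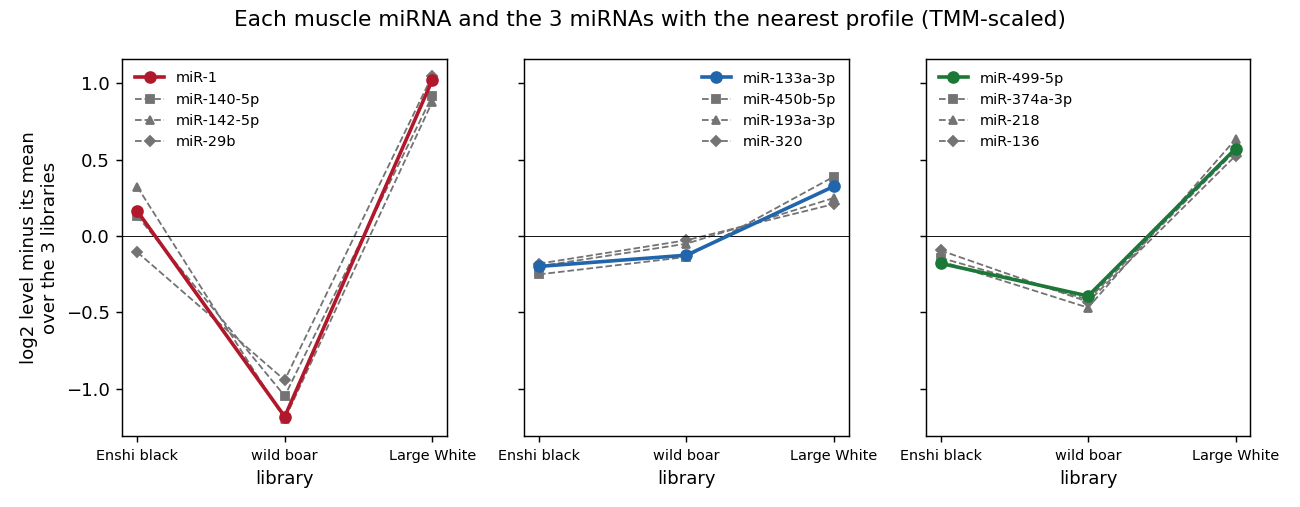
Centred log2 level after TMM in each library for miR-1 (left), miR-133a-3p (middle) and miR-499-5p (right), each with the 3 miRNAs of the nearest profile in grey. Points are single libraries. The profile of miR-1 dips in the wild boar library, that of miR-499-5p does so less, and that of miR-133a-3p is nearly flat between the Enshi black and wild boar libraries.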

How the data were processed

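Per the labels' protocols, small RNA of 14 to 40 nucleotides from total liver RNA was sequenced as single-end reads on an Illumina HiSeq. The submitters' processing notes name the build Sscrofa 10.2. The tools for alignment and counting, and the miRNA annotation, were not given in the sources at hand. The deposited files give expected counts, a read count for each of 486 pairs of mature miRNA and precursor, with reads that match several rows divided among them. The deposited RPM, the count over the sum of all rows, was not used. Counts were summed over precursors and rounded. The 6 names that repeat another name's reads were left out, which left 405 miRNAs.

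TMM factors were computed with edgeR 4.0.16 in R 4.3.3 from all 405 miRNAs and were 1.20 for the Enshi black, 1.08 for the wild boar and 0.772 for the Large White library. Ratios have exact conditional-binomial intervals, shares have exact Clopper-Pearson intervals, and odds ratios have exact conditional intervals, or Woolf intervals from 5000 reads on. The interval of a ratio to miR-122 takes the miR-122 count as fixed. No p-value was computed, since each breed has 1 library. Without molecular identifiers, intervals and floors of 3 counts cover counting error only. Alternatives were other scalings (library totals, totals without miR-122, DESeq2 1.42.0 size factors), other filters, the largest precursor row and all names kept. The miRNAs, lists and tests were chosen with earlier results of these data known. The rule named the 3 miRNAs, their list relatives and other arms, miR-122, the neighbours in read count, the 3 nearest profiles of each and up to 4 members of other lists. Mature sequences were not used here. The Sscrofa11.1 table gave gene neighbours only.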

Additional observations from a re-analysis of the deposited data

How the results depend on the processing

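The scaling decides the size of most ratios. On library totals, the log2 ratios of Enshi black over Large White were −0.23 for miR-1, 0.10 for miR-133a-3p and −0.12 for miR-499-5p. Those of wild boar over Large White were −1.75, 0.020 and −0.49, and miR-499-5p had 0.37 in Enshi black over wild boar. On totals without miR-122, the same 3 miRNAs had −0.39, −0.066 and −0.28 in Enshi black over Large White, and −1.80, −0.027 and −0.53 in wild boar over Large White. With TMM factors from the miRNAs of at least 100 mean CPM, or from those of at least 10 (added after seeing the data), 2 of the 3 were past 2-fold in wild boar over Large White, since miR-499-5p then crossed the threshold. At a 4-fold threshold, 0 of the 3 were called in Enshi black over wild boar and 1 in wild boar over Large White. The share of all miRNAs called with these TMM factors or at 4-fold is not given here. These counts of members therefore have no background beside them. Under DESeq2 size factors, no CPM minimum, the largest precursor row, all names kept, and joint reads of names that share them (also added after seeing the data), each ratio stayed within its counting interval and each count of calls was the same. Under joint reads, the interval of the miR-1 to miR-133a-3p read ratio in Enshi black over Large White (log2 −0.36) no longer held 0. With the largest precursor row, the interval of miR-133a-3p in wild boar over Large White (−0.88 to 0.02) held 0. miR-1 was past 2-fold in both wild boar pairs under every scaling tried. No paired analysis was possible because each breed has 1 library, and for the same reason no library could be left out. Depth limits miR-133a-5p, miR-133b and miR-499-3p to the few reads given above.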
